A study of Polistes fuscatus with 17 samples.

Results

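12 contigs were high in some brains of the paper wasp Polistes fuscatus and at or near 0 in others, and both states occurred in foundresses and in workers. A contig is 1 stretch of transcript put together from sequencing reads, and the deposited table counts reads for 157691 of them in 17 single brains. The unit used throughout is CPM, a contig's read count scaled to the total count of its library. The 12 were chosen on these values: a mean under 32 CPM over 16 wasps, at least 4 wasps at 3 CPM or more (called present), at least 4 under 0.2 CPM (called absent), and at least 1 foundress and 1 worker present. Wasp F17 was left out of that choice. Because the levels chose the contigs, their switching between wasps is a description and carries no test.

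Foundresses are mated females that start a nest in spring, and workers are daughters that emerge later and help on it. P. fuscatus has variable facial markings, which its females learn and use to tell individuals apart. A transcriptome assembly can hold several contigs of 1 gene, as separate exons, splice forms or allele versions, and reads can match more than 1 of them. The files pair no contig with a gene name or a sequence. A look-up in the CU_Pfus_HIC gene table, which has 13634 entries, found 0 of the identifiers, so the 12 go by identifier and no function is given.

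All wasps were adult females from Ann Arbor, collected in 2012, each trained over 40 trials in a T-maze with negative reinforcement and frozen 30 minutes after the last trial, and each library came from the total RNA of 1 brain. 5 foundresses were trained to P. fuscatus faces (F25, F29, F35, F42 and F55, all collected in May) and 4 to simple patterns (F3 and F17 in May, F34 and F52 in June). 4 workers had been kept for at least a week on a P. fuscatus nest other than the natal one (conspecific; FW10, FW25 and FW28 in July, FW47 in August) and 4 on a nest of P. metricus (allospecific; FW11 and FW24 in July, FW32 and FW44 in August). The workers were all trained to faces. Total counts were 7.69 to 20.4 M per library, the lowest in F3. F17 stood apart: the biological coefficient of variation, the spread between wasps of a group relative to the level, was 0.251 with it and 0.203 without it, so tests are given both ways. Caste, season, age and rearing differ together between foundresses and workers and cannot be told apart, and in whole brains fewer cells of a type and less RNA per cell cannot be told apart either.

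Contigs that are well counted in some wasps and missing in others were few. Of 151777 contigs with a mean under 32 CPM, 33533 were present in at least 4 wasps, 13 of those were also absent in at least 4, and 12 of the 13 were present in both castes. Of the 29219 contigs whose mean lay in the range of the 12, which was 1.38 to 11.4 CPM, 163 (0.558%) were under 0.2 CPM in any of the 16 wasps. Just inside the upper bound of the mean was PfusTSAr1.0-050488 at 11.4 CPM, and just outside it PfusTSAr1.0-028943 at 46.9 CPM. The 4th highest value was 3.04 CPM in PfusTSAr1.0-069786, inside, and 2.96 CPM in PfusTSAr1.0-109860, outside. The 4th lowest value was 0.151 CPM in PfusTSAr1.0-098483, inside, and 0.251 CPM in PfusTSAr1.0-041476, outside. PfusTSAr1.0-112738 met every condition but that on castes, with no worker above 2.31 CPM.

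**Figure D1:**
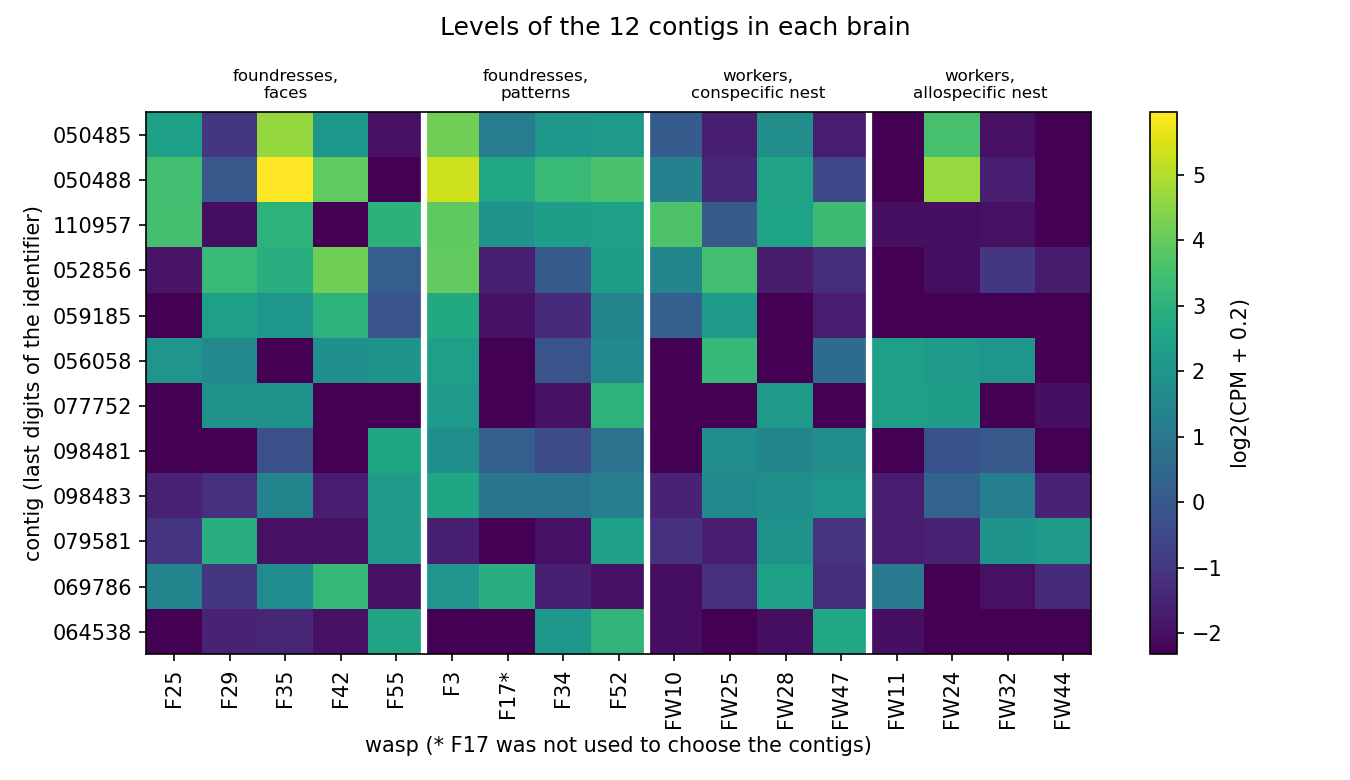
Each row is 1 of the 12 contigs, named by the last digits of its identifier, and each column 1 brain, grouped by the study's groups; colour is log2(CPM + 0.2), bright for high. Every contig has bright and dark cells in foundresses and in workers, and contigs 050485 and 050488, 052856 and 059185, and 098481 and 098483 have nearly the same pattern.

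The highest of the 12 on average was PfusTSAr1.0-050488. It stood at 10.8 CPM in F25, 0.786 in F29, 61.8 in F35, 14.9 in F42 and 0 in F55, the foundresses trained to faces, and at 39.6 in F3, 5.97 in F17, 9.32 in F34 and 11.6 in F52, those trained to patterns. In workers it stood at 2.31 CPM in FW10, 0.180 in FW25, 5.27 in FW28 and 0.499 in FW47 from conspecific nests, and at 0 in FW11, 25.1 in FW24, 0.121 in FW32 and 0 in FW44 from allospecific nests. F35 had 1076 reads of it and F55 had 0, at close total counts of 17.4 and 17.2 M. The groups overlapped, and 1 worker, FW24, lay above 7 of the 9 foundresses.

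PfusTSAr1.0-050485, 3 identifiers away, followed it. Its levels were 5.03 CPM in F25, 0.295 in F29, 25.1 in F35, 4.10 in F42 and 0.0583 in F55 among foundresses trained to faces, and 17.5 in F3, 2.03 in F17, 3.96 in F34 and 4.23 in F52 among those trained to patterns. Workers had 0.853 CPM in FW10, 0.120 in FW25, 3.21 in FW28 and 0.111 in FW47 from conspecific nests, and 0 in FW11, 11.6 in FW24, 0.0607 in FW32 and 0 in FW44 from allospecific nests. F35, F3 and FW24 were again the highest wasps of their groups. Over the 16 wasps the log2(CPM + 0.2) of both contigs had a Pearson r of 0.99, a description of values from the same libraries. In the 10 wasps with at least 20 reads of both together, F17 not among them, PfusTSAr1.0-050488 took 62.1% to 78.4% of those reads, with a median of 70.7%, while their summed CPM ranged 80.4-fold. The share varied far less than the level. The exact 95% binomial intervals of its highest and lowest wasp, F42 (73.6% to 82.7%) and FW28 (54.4% to 69.5%), do not overlap. These wasps were picked as the extremes, and the intervals cover counting error only. F17, which chose neither contig, had 74.6% (65.9% to 82.0%, exact 95% binomial interval).

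By the same likeness over 65005 other contigs with a mean of at least 0.3 CPM, the 3 most like PfusTSAr1.0-050488 were PfusTSAr1.0-102353 (r = 0.99), PfusTSAr1.0-050485 (r = 0.99) and PfusTSAr1.0-079254 (r = 0.91). PfusTSAr1.0-102353 is not among the 12, since its mean of 36.1 CPM is over the bound and its lowest value is 0.456 CPM. It reached 152 CPM in F35 and 206 CPM in F3, and 57.8 CPM in FW24. It had 1.05 CPM in F55, and 0.750 CPM in FW11 and 0.456 CPM in FW44, where both of the 12 were at or near 0. PfusTSAr1.0-079254 ran from 0.203 to 11.2 CPM, again highest in F35. By number only PfusTSAr1.0-050485 and PfusTSAr1.0-050488 lie close together in this set of 4.

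A second set was led by PfusTSAr1.0-052856. Foundresses trained to faces had 0.0708 CPM in F25, 9.33 in F29, 7.29 in F35, 17.8 in F42 and 0.932 in F55, and those trained to patterns 15.5 in F3, 0.131 in F17, 0.805 in F34 and 4.73 in F52. Workers had 2.56 CPM in FW10, 10.7 in FW25, 0.1003 in FW28 and 0.222 in FW47 from conspecific nests, and 0 in FW11, 0.0496 in FW24, 0.303 in FW32 and 0.101 in FW44 from allospecific nests. 5 foundresses and 1 worker, FW25, were at 3 CPM or more, and no wasp from an allospecific nest passed 0.303 CPM.

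PfusTSAr1.0-059185 showed nearly the same pattern, although its identifier lies 6329 away. It had 0 CPM in F25, 4.86 in F29, 3.85 in F35, 7.97 in F42 and 0.699 in F55 with faces, and 6.37 in F3, 0.0656 in F17, 0.201 in F34 and 2.46 in F52 with patterns. Conspecific-nest workers had 0.954 CPM in FW10, 4.45 in FW25, 0 in FW28 and 0.111 in FW47, and all 4 allospecific-nest workers were at 0. The correlation with PfusTSAr1.0-052856 was 0.99 over 16 wasps. PfusTSAr1.0-052856 held a median of 67.4% of their joint reads (57.1% to 72.9%, 8 wasps), over a 15.8-fold range of their sum. Each also had a partner of r over 0.9 within 10 identifiers, PfusTSAr1.0-052855 (mean 1.30 CPM) 1 identifier from PfusTSAr1.0-052856 and PfusTSAr1.0-059178 (mean 0.762 CPM) 7 identifiers from PfusTSAr1.0-059185. F17 had 2 reads and 1 read of the pair and 0 of both partners, so the whole set was near 0 in the wasp that took no part in the choice.

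The third pair lies 2 identifiers apart. PfusTSAr1.0-098483 had 0.142 CPM in F25, 0.246 in F29, 2.47 in F35, 0.116 in F42 and 4.54 in F55 with faces, and 5.59 in F3, 1.71 in F17, 1.61 in F34 and 2.15 in F52 with patterns. In workers it had 0.151 CPM in FW10, 2.83 in FW25, 3.31 in FW28 and 3.88 in FW47 from conspecific nests, and 0.107 in FW11, 1.04 in FW24, 2.19 in FW32 and 0.152 in FW44 from allospecific nests. 7 of the 16 wasps lay between the bounds, the most of any of the 12, so this contig is graded rather than split.

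PfusTSAr1.0-098481 had 0 CPM in F25, F29 and F42, 0.631 in F35 and 5.83 in F55 with faces, and 3.25 in F3, 0.918 in F17, 0.536 in F34 and 1.58 in F52 with patterns. It had 0 in FW10, 3.13 in FW25, 2.56 in FW28 and 3.22 in FW47 from conspecific nests, and 0 in FW11 and FW44, 0.644 in FW24 and 0.789 in FW32 from allospecific nests. The 6 wasps with 0 reads of it were the 6 in which PfusTSAr1.0-098483 was lowest. The pair correlated at 0.96, but the share of PfusTSAr1.0-098483 ran from 43.8% in F55 to 79.6% in F35 (median 59.7%, 10 wasps). The exact 95% binomial intervals of these 2 wasps, 36.4% to 51.4% in F55 and 66.5% to 89.4% in F35, do not overlap. Both were again picked as the extremes, and the intervals cover counting error only.

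**Figure D2:**
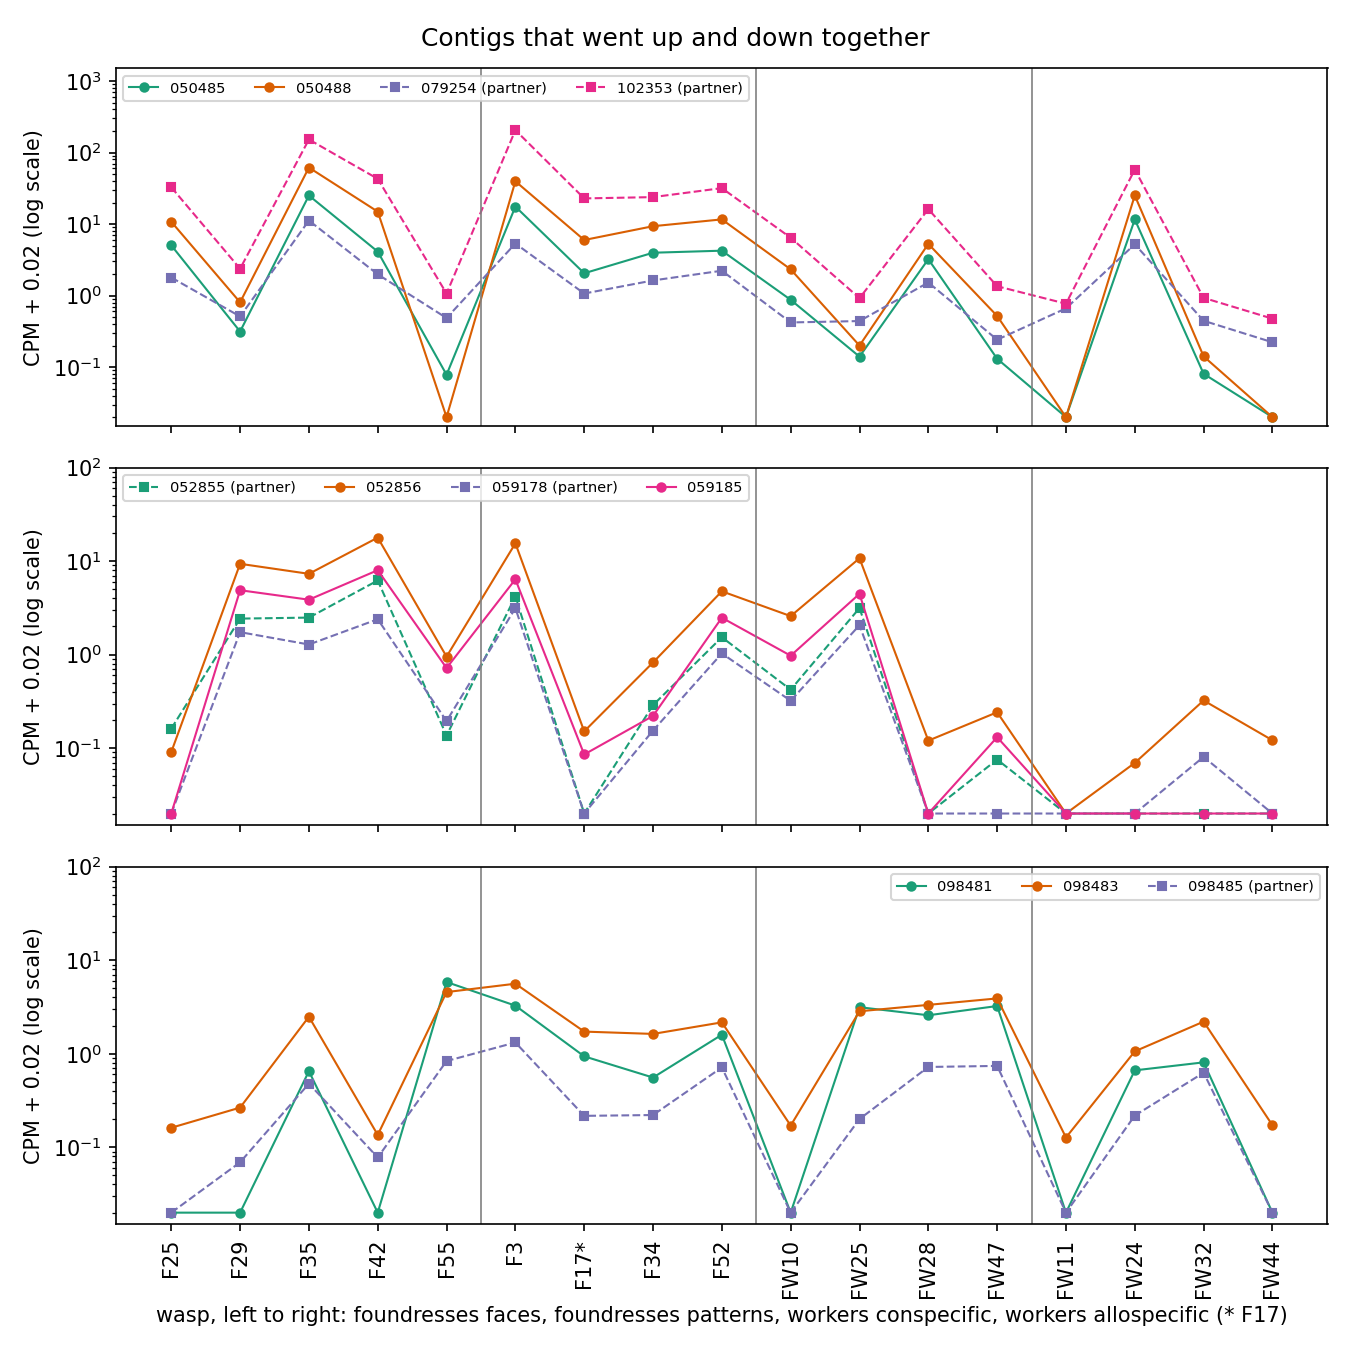
CPM + 0.02 on a log axis in each of the 17 wasps for the 3 sets that hold 2 of the 12 contigs; circles with solid lines are the 12, squares with dashed lines are partners outside the 12, and vertical lines part the groups. In the upper panel all 4 contigs peak in F35, F3 and FW24, and in the middle panel all 4 are near 0 in the 4 allospecific-nest workers.

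The other 6 contigs each had a pattern of their own. PfusTSAr1.0-110957 stood at 11.2 CPM in F25, 0.0491 in F29, 7.92 in F35, 0 in F42 and 7.81 in F55 with faces, and at 14.8 in F3, 3.67 in F17, 4.76 in F34 and 5.17 in F52 with patterns. Workers had 12.3 CPM in FW10, 0.842 in FW25, 5.42 in FW28 and 10.1 in FW47 from conspecific nests, and 0.0536 in FW11, 0.0496 in FW24, 0.0607 in FW32 and 0 in FW44 from allospecific nests. It was near 0 in F29, F42 and all 4 allospecific-nest workers and at 3.67 CPM or more in all others but FW25. None of the contigs compared had an r above 0.88 with it, and its 2 direct neighbours by number, PfusTSAr1.0-110956 and PfusTSAr1.0-110958, ran only from 16.1 to 24.5 and from 15.5 to 26.5 CPM over the 16 wasps.

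PfusTSAr1.0-056058 was at 3.82 CPM in F25, 2.95 in F29, 0 in F35, 3.35 in F42 and 3.73 in F55 with faces, and at 4.94 in F3, 0 in F17, 0.671 in F34 and 2.84 in F52 with patterns. It was at 0 in FW10, 9.08 in FW25, 0 in FW28 and 1.33 in FW47 from conspecific nests, and at 4.88 in FW11, 4.21 in FW24, 3.88 in FW32 and 0 in FW44 from allospecific nests. All of its absent wasps had 0 reads, F17 included. Its partners PfusTSAr1.0-056057 and PfusTSAr1.0-056055, 1 and 3 identifiers away (r = 0.99 each), were at 0 in those same wasps.

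PfusTSAr1.0-077752 was one of 2 contigs with no wasp between the bounds. It had 0 CPM in F25, F42 and F55, 3.59 in F29 and 3.50 in F35 with faces, and 4.29 in F3, 0 in F17, 0.0671 in F34 and 8.01 in F52 with patterns. It had 0 in FW10, FW25 and FW47 and 4.11 in FW28 from conspecific nests, and 5.04 in FW11, 4.66 in FW24, 0 in FW32 and 0.0507 in FW44 from allospecific nests. The lowest present value was 8.98 times the floor of 3 reads in the smallest library, 0.390 CPM. Present and absent wasps occurred in all 4 groups, and none of the contigs compared had an r above 0.89 with it.

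PfusTSAr1.0-064538 was the other. It had 0 CPM in F25, 0.147 in F29, 0.172 in F35, 0.0578 in F42 and 5.53 in F55 with faces, and 0 in F3 and F17, 4.02 in F34 and 8.39 in F52 with patterns. Only FW47, at 5.99 CPM, was present among workers, where FW10 had 0.0502, FW25 0 and FW28 0.0502 CPM from conspecific nests and FW11 0.0536, FW24 0, FW32 0 and FW44 0 CPM from allospecific nests. It was thus present in 4 of the 16 wasps, the fewest the rule allows, and its lowest present value was 10.3 times that floor. PfusTSAr1.0-064542, 4 identifiers away (r = 0.98), had 3.84 CPM in F55, 1.54 in F34, 6.12 in F52 and 4.16 in FW47 and at most 0.402 CPM in any other wasp.

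PfusTSAr1.0-079581 had 0.283 CPM in F25, 7.17 in F29, 0.0574 in F35, 0.0578 in F42 and 4.54 in F55 with faces, and 0.130 in F3, 0 in F17, 0.0671 in F34 and 5.11 in F52 with patterns. It had 0.251 CPM in FW10, 0.120 in FW25, 3.61 in FW28 and 0.277 in FW47 from conspecific nests, and 0.107 in FW11, 0.149 in FW24, 3.70 in FW32 and 4.36 in FW44 from allospecific nests. 3 foundresses and 3 workers were present, and none of the other wasps passed 0.283 CPM. Its partners PfusTSAr1.0-079578 and PfusTSAr1.0-079583 (r = 0.99 and 0.98) were highest in the same 6 wasps, at 5.16 to 10.6 CPM and 2.003 to 3.54 CPM.

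PfusTSAr1.0-069786 had 2.48 CPM in F25, 0.295 in F29, 3.04 in F35, 8.84 in F42 and 0.0583 in F55 with faces, and 3.77 in F3, 7.21 in F17, 0.134 in F34 and 0.0631 in F52 with patterns. It had 0.0502 CPM in FW10, 0.240 in FW25, 4.97 in FW28 and 0.222 in FW47 from conspecific nests, and 1.88 in FW11, 0 in FW24, 0.0607 in FW32 and 0.203 in FW44 from allospecific nests. F42, F17, FW28 and F3 were the highest wasps. PfusTSAr1.0-069779 (r = 0.97) reached 26.3 CPM in F42, 25.2 in F17 and 15.6 in FW28, and PfusTSAr1.0-069784 (r = 0.95) never fell under 0.805 CPM and reached 15.5 CPM in F42. Contigs between them by number were present in all 16 wasps used by the rule and varied less. There PfusTSAr1.0-069781 ran from 12.6 to 36.2 CPM (r = 0.87) and PfusTSAr1.0-069785 from 21.2 to 31.2 CPM (r = -0.07). In F17, outside that range, PfusTSAr1.0-069781 stood at 53.8 CPM.

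**Figure D3:**
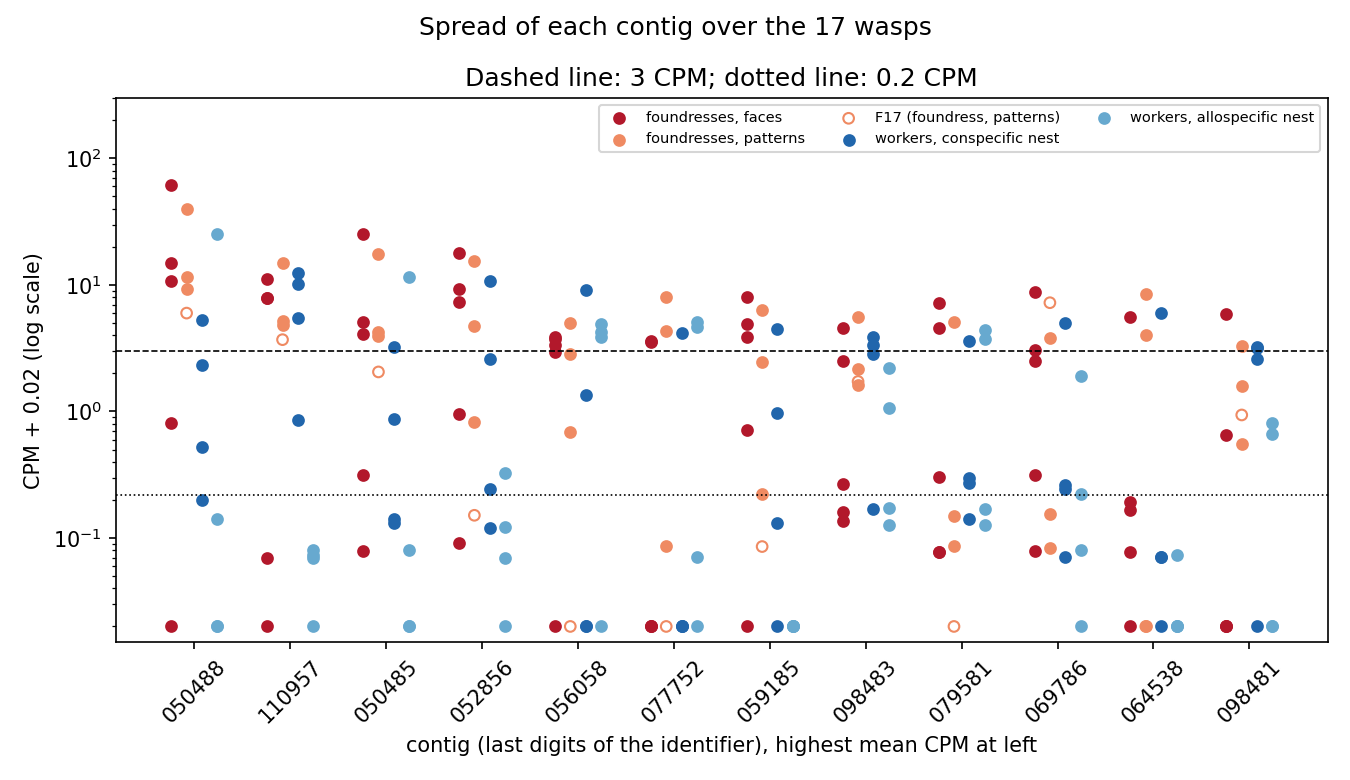
CPM + 0.02 on a log axis for each of the 12 contigs, 1 point per wasp, ordered from the highest mean at the left; the dashed line marks 3 CPM, the dotted line 0.2 CPM, and open circles are F17, which took no part in the choice. Contigs 077752 and 064538 have no filled point between the lines, while 098483 has 7, and every group spans a wide range in most contigs.

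Of the 192 values of the 12 contigs in 16 wasps, 73 (38.0%) were present, 78 (40.6%) absent and 41 (21.4%) between. Of the absent values 38 (48.7%) were 0 reads. The floor was taken as 3 reads, which is 0.147 CPM in the deepest library, F29, and 0.390 CPM in F3. The exact 95% binomial interval of 0 reads reaches further, to 0.181 CPM in F29 and 0.479 CPM in F3. In some other libraries it also passes 0.2 CPM, as in F25 (0.261 CPM), so 0 reads there do not exclude that level. An absent call in F3, where 0.2 CPM is 1.54 reads, is less firm than elsewhere. The 3 reads of PfusTSAr1.0-110957 over all 4 allospecific-nest workers, and the like elsewhere, are low counts and not shown to be expression. These limits cover counting error only.

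Abundant contigs beside them by number varied less. Within 5 identifiers of the 12 lay 31 contigs outside the 12 with a mean of at least 10 CPM, next to 10 of them. All 31 were at 3 CPM or more in all 16 wasps, which their choice by mean favours, with a coefficient of variation of 0.1001 to 0.496 (median 0.153), against 0.866 to 1.82 (median 1.31) in the 12, for which it follows from the rule. Low neighbours could vary as much as the 12, as did PfusTSAr1.0-064542 (coefficient of variation 1.89), PfusTSAr1.0-079583 (1.27) and PfusTSAr1.0-059186 (1.23). Of 93 comparisons of 1 of the 12 with a neighbour of at least 0.3 CPM, 12 had an r over 0.9 and 70 lay between -0.5 and 0.5. The 2 pairs whose contigs are both among the 12 were counted from either side, so these are not all distinct pairs. Whether neighbouring numbers belong to 1 gene is not given in the files. Reads that matched several contigs may have been shared among them, and how they were counted is not given in the sources used here.

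Apart from the 3 pairs, the 12 went their own ways. The other 63 pairs among them had a median r of 0.10 over 16 wasps, from -0.43 (PfusTSAr1.0-050488 with PfusTSAr1.0-079581) to 0.49. The 12 had 12 different patterns of present, absent and between over the wasps. With partners of r over 0.9 added, a step taken after the values were seen, 10 of the 12 fell into 7 sets of 23 contigs, 13 of them from outside the 12, and PfusTSAr1.0-110957 and PfusTSAr1.0-077752 had no partner. 1 of those 13, PfusTSAr1.0-096305, ran only from 16.1 to 21.6 CPM, so an r over 0.9 with PfusTSAr1.0-064538 does not make it a contig that switches.

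F17, which the rule did not use, gave an independent look at these contigs. It had 3 present (PfusTSAr1.0-050488, PfusTSAr1.0-110957 and PfusTSAr1.0-069786), 6 absent and 3 between, which is 25% present and 50% absent, so in it too the 12 were split. The partners followed: PfusTSAr1.0-102353 stood at 22.8 CPM beside PfusTSAr1.0-050488, and PfusTSAr1.0-069779 and PfusTSAr1.0-069784 at 25.2 and 15.5 CPM beside PfusTSAr1.0-069786.

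The number of the 12 that were present differed widely between wasps of 1 group. It was 4 in F25, 4 in F29, 7 in F35, 6 in F42 and 6 in F55 with faces, and 10 in F3, 4 in F34 and 7 in F52 with patterns. It was 1 in FW10, 4 in FW25, 7 in FW28 and 4 in FW47 from conspecific nests, and 2 in FW11, 4 in FW24, 2 in FW32 and 1 in FW44 from allospecific nests. All 4 groups overlapped. F3, with the most present, had the lowest total count of all, and FW44, with the fewest present beside FW10, one of 19.7 M, and the part of depth was not tested.

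The 8 foundresses used by the rule held 48 present values of 96 (50%) and 28 absent (29.2%), and the 8 workers 25 present of 96 (26.04%) and 50 absent (52.1%). By month the present share was 51.4% in the 6 May foundresses and 45.8% in the 2 June foundresses, and 30% in the 5 July workers and 19.4% in the 3 August workers. No test is given, since the values chose the contigs and those of 1 set repeat each other.

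**Figure D4:**
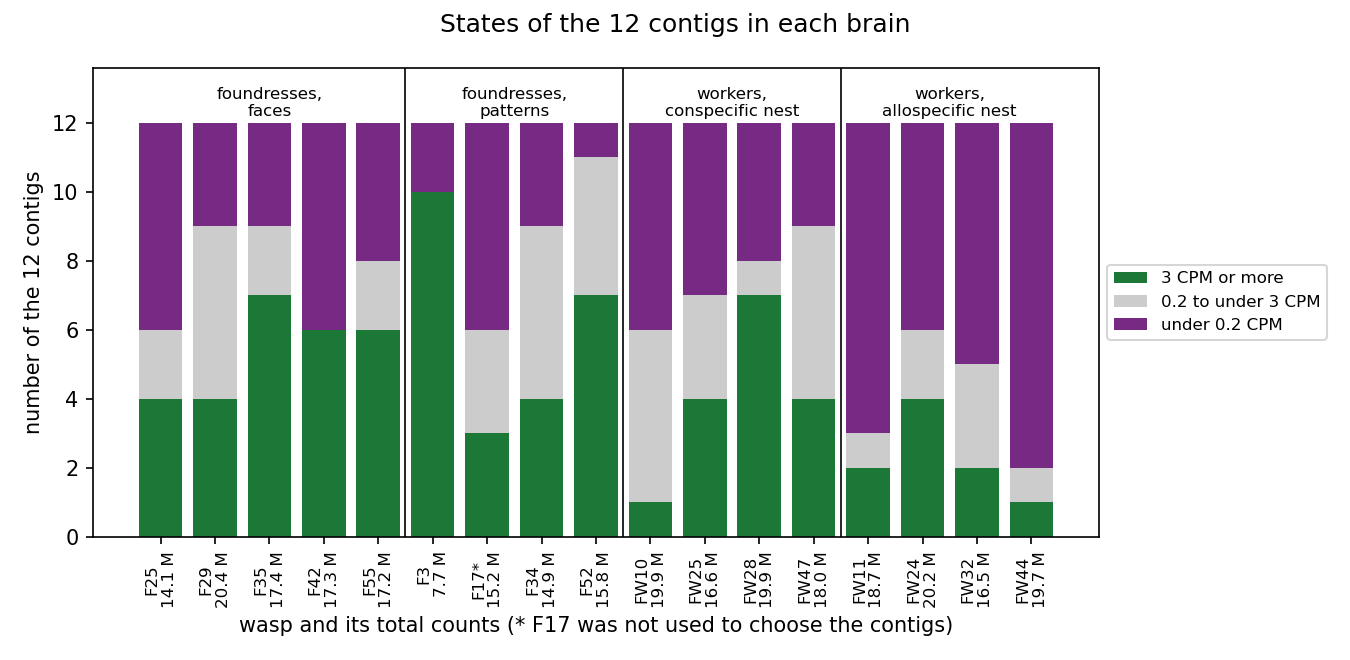
Number of the 12 contigs at 3 CPM or more (bottom), from 0.2 to under 3 CPM (middle) and under 0.2 CPM (top) in each wasp, with its total count (M); the asterisk marks F17. Present contigs number 1 to 10 per wasp among the 16 others, and the 4 allospecific-nest workers have 6 to 10 of the 12 absent.

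Wasps of 1 group and wasps of different groups shared about as many states. Over contigs called present or absent in both wasps of a pair, a median of 55.6% had the same state in the 25 pairs from 1 group and 50% in the 95 pairs from different groups. The allospecific-nest workers were the most alike, with a median of 73.9% over 6 pairs, and FW32 and FW44 shared 7 of 8 states. These workers had 6 to 10 of the 12 absent, which by itself raises such a share, and the share to be had from that alone was not worked out. 1 pair of 120 had every state in common, F55 trained to faces and FW47 from a conspecific nest, in 6 of 6. F35 and F3 shared 9 of 10. All 16 patterns differed, and the labels do not give the nest or colony in which a wasp hatched, so kinship could not be set beside these patterns.

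The study's question of training was asked of each contig by setting foundresses trained to faces against those trained to patterns. None of the 12 passed the false discovery rate (FDR) of 0.05 in the quasi-likelihood test of edgeR, adjusted over 61002 contigs by Benjamini-Hochberg, where 0% of all contigs passed. None had an unadjusted p under 0.05 either, against 7.14% of all contigs. 6 of the 12 had a higher and 6 a lower fitted level with faces, with a median log2 fold change of 0.02, against -0.03 over all contigs. The smallest p on the higher side belonged to PfusTSAr1.0-059185, which averaged 3.48 ± 3.24 CPM with faces (SD, n = 5) and 2.27 ± 2.94 CPM with patterns (n = 4), a log2 fold change of 0.83 (SE 1.17, adjusted p = 0.906 in edgeR). On the lower side it was PfusTSAr1.0-064538, at 1.18 ± 2.43 CPM with faces and 3.10 ± 4.00 CPM with patterns (log2 fold change -1.55, SE 1.30, adjusted p = 0.837 in edgeR). In both the SD is about as large as the mean or larger. All reads of PfusTSAr1.0-064538 with patterns came from F34 and F52, collected in June. F3 and F17, collected in May like every wasp trained to faces, had 0, so its difference cannot be told apart from month. The SEs of the 12 ran from 0.85 to 1.45 on the log2 scale. DESeq2's Wald test kept an adjusted p for none of the 12 and so made no call on them either way. The groups did not overlap in 0 of the 12, against 1.47% of all contigs. 0 of the 12 passed without F17. None passed in May wasps alone either, where the filter kept 11 of the 12 and PfusTSAr1.0-064538 was not tested.

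For the nest on which workers were kept, 0 of the 12 passed the FDR, against 0.0115% of all contigs, and 0 without F17, against 0.0258%. 4 of the 12 had an unadjusted p under 0.05, against 2.65% of all: PfusTSAr1.0-110957, PfusTSAr1.0-052856, PfusTSAr1.0-059185 and PfusTSAr1.0-064538, all with lower values on allospecific nests. PfusTSAr1.0-052856 and PfusTSAr1.0-059185 share a pattern over wasps (r = 0.99), so they are not 2 separate results. 7 of the 12 had a higher fitted level on conspecific nests, and the median log2 fold change was 1.46, against 0.00 over all contigs. The groups did not overlap in 1 of the 12, PfusTSAr1.0-110957, against 2.96% of all contigs.

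PfusTSAr1.0-110957 averaged 7.18 ± 5.12 CPM in conspecific-nest workers and 0.0410 ± 0.0277 CPM in allospecific-nest workers (SD, n = 4 each). The pooled counts were 550 and 3, a 185-fold ratio with an exact 95% counting interval of 62.9 to 898, which leaves out the spread between wasps. The log2 fold change was 7.21 (SE 1.56) with an adjusted p of 0.448 in edgeR's quasi-likelihood test. It passed with DESeq2's Wald test (adjusted p = 0.00272), without the low-count filter (edgeR, adjusted p = 0.000689) and with the worker libraries alone (edgeR, adjusted p = 0.0227). In that last fit the filter kept 4 of the 12. This contig could pass it only through the conspecific-nest workers, where it is high, so that value is no support. In edgeR it did not pass with robust dispersions (adjusted p = 0.740), with month as a covariate (adjusted p = 0.566) or with any single wasp left out. By month the values were 12.3, 0.842 and 5.42 against 0.0536 and 0.0496 CPM in July, and 10.1 against 0.0607 and 0 CPM in August. As the groups did not overlap over both months, they had to be apart within each, so this split adds nothing. With July workers alone the adjusted p was 0.570 (edgeR).

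PfusTSAr1.0-059185 had 95 reads in conspecific-nest workers, 74 of them in FW25, and 0 in allospecific-nest workers, so the difference rests mostly on 1 wasp. PfusTSAr1.0-052856 had 235 reads in conspecific-nest workers, 178 of them in FW25, and 8 in allospecific-nest workers, so it too rests mostly on that wasp. PfusTSAr1.0-064538 rests almost wholly on FW47, with 110 reads in conspecific-nest workers and 1 in allospecific-nest workers. The lower contig of smallest p was PfusTSAr1.0-050488, at 2.06 ± 2.33 CPM in conspecific-nest and 6.31 ± 12.5 CPM in allospecific-nest workers (log2 fold change -1.61, SE 1.52, adjusted p = 1 in edgeR). That value rests on FW24: without it the log2 fold change was 5.58.

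For caste, foundresses trained to faces were set against the mean of both worker groups, which were trained to faces too. This comparison uses the same face-trained foundresses as that of training. 0 of the 12 passed the FDR, against 2.45% of all contigs, and 3 of the 12 had an unadjusted p under 0.05, against 17.3% of all. The groups did not overlap in 0 of the 12, against 3.51% of all. Nothing can be read from these counts, since the rule asked for present wasps in both castes and for a wide spread, which works against such calls. Low counts in the other fits of caste have the same limit. 11 of the 12 had a higher fitted level in foundresses and 1 a lower one, with a median log2 fold change of 1.93, against 0.00 over all contigs. In the fit the worker level is the mean of the logs of both groups, so a group near 0 pulls it down: by pooled counts 9 of the 12 were higher in foundresses, with a median log2 ratio of 0.71.

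PfusTSAr1.0-059185 had the smallest p. It averaged 3.48 ± 3.24 CPM in foundresses trained to faces (SD, n = 5) and 0.689 ± 1.55 CPM in workers (n = 8), a pooled ratio of 5.76. Its log2 fold change was 5.24 (SE 1.53), with an adjusted p of 0.0852 in edgeR's quasi-likelihood test, a size that depends on the prior count since a worker group is at 0. Against conspecific-nest workers alone it was 1.52 (SE 1.17, adjusted p = 0.657 in edgeR). Against allospecific-nest workers alone it was 8.97 (SE 2.49, adjusted p = 0.0951 in edgeR). PfusTSAr1.0-052856 averaged 7.08 ± 7.19 CPM in foundresses and 1.75 ± 3.71 CPM in workers, a pooled ratio of 4.57, with a log2 fold change of 3.65 (SE 1.12, adjusted p = 0.0923 in edgeR).

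Without F17 both passed in edgeR (adjusted p = 0.0386 for either), 2 of the 12 against 9.85% of all contigs. F17 belongs to neither group of this comparison, and leaving it out changed the shared spread, the contigs kept (62117 in place of 61002) and the calls over all contigs (6121 in place of 1493). DESeq2's Wald test called 3 of the 12 over all 17 wasps, these and PfusTSAr1.0-110957, against 5.30% of all contigs with an adjusted p. As the 2 contigs share a pattern over wasps, they are not 2 separate results. Without FW24, PfusTSAr1.0-050488 was the 1 contig of the 12 that passed, against 1.35% of all contigs in that fit, and PfusTSAr1.0-059185 and PfusTSAr1.0-052856 did not. Its log2 fold change was 5.94 with an adjusted p of 0.0358 in edgeR, against 0.294 over all 17 wasps. FW24 held 507 of the 672 worker reads of this contig. The other allospecific-nest workers had 0, 2 and 0 reads, so the size of 5.94 depends on the prior count. PfusTSAr1.0-110957 averaged 5.39 ± 5.09 CPM in foundresses and 3.61 ± 5.08 CPM in workers, a pooled ratio of 1.35, beside a fitted log2 fold change of 3.24 (adjusted p = 0.103 in edgeR). The lower contig, PfusTSAr1.0-077752, was at 1.42 ± 1.94 CPM in foundresses and 1.73 ± 2.39 CPM in workers (log2 fold change -0.06, SE 1.28, adjusted p = 0.988 in edgeR).

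**Figure D5:**
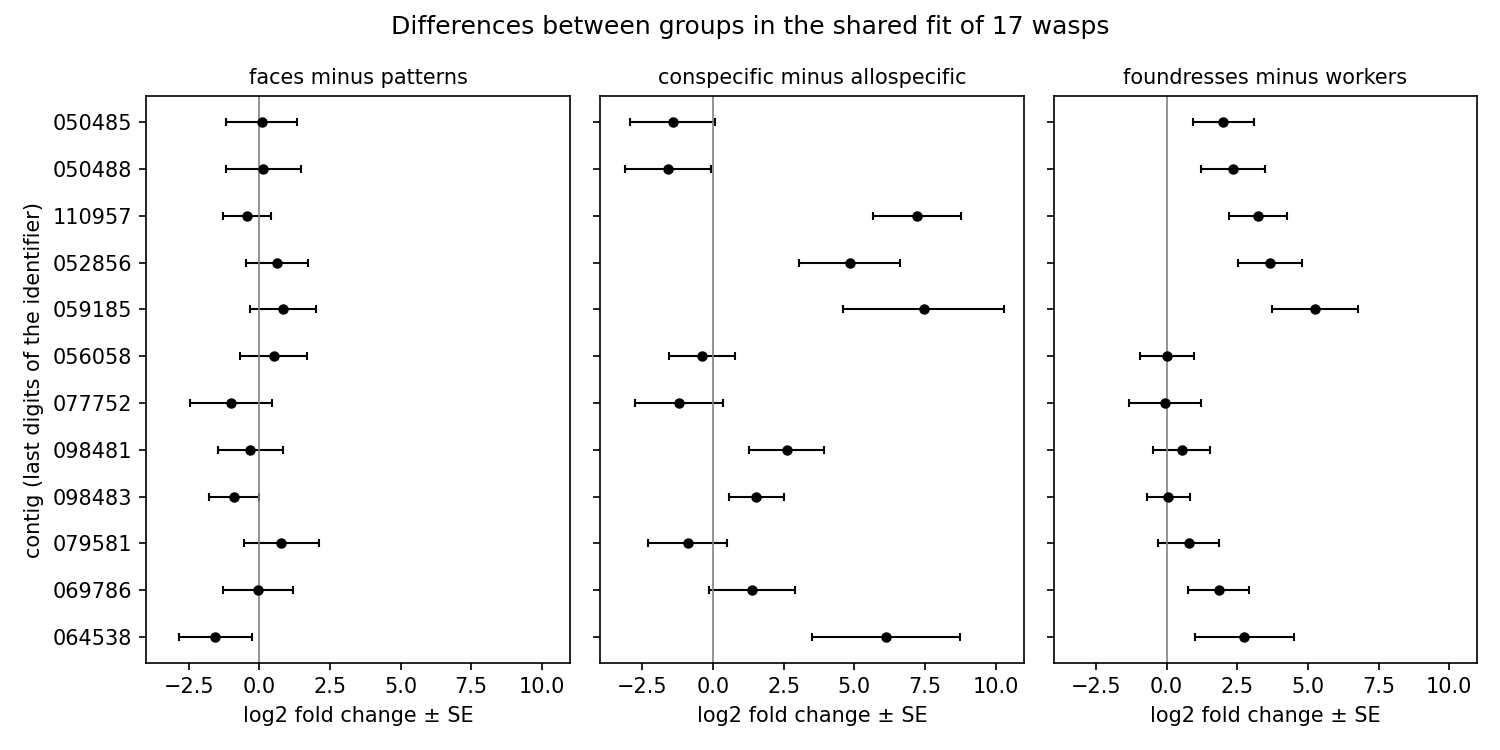
Log2 fold change with its SE (bars) of each of the 12 contigs in the shared fit of 17 wasps, for faces minus patterns in foundresses, conspecific minus allospecific nest in workers, and face-trained foundresses minus the mean of both worker groups. Values run from -1.55 to 0.83 for training, from -1.61 to 7.45 for the nest and from -0.06 to 5.24 for caste, and none passes the FDR in this fit.

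The spread between wasps was what set the 12 apart in the fit. Their biological coefficients of variation within groups were 0.948 to 2.18 (median 1.46), against a median of 0.221 over all tested contigs, which follows from the rule. The p-values set a difference between groups against the spread between individual wasps, estimated over all 17 libraries and moderated over all tested contigs. Each wasp is a separate animal, but their kinship is not known.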

How the data were processed

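RNA was measured in 17 single brains, 1 library per wasp. The deposited table holds read counts per contig, whole numbers whose totals differ between libraries, so no normalization by the authors shows in them. Trimmomatic 0.32, Bowtie2 and eXpress appear in the submitters' processing notes, with no roles. Their settings, and how reads matching several contigs were treated, are not given in these sources.

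CPM is the count over the library's total, and correlations used log2(CPM + 0.2). Contrasts were tested in R 4.3.3 with edgeR 4.0.16: expression filter by group (61002 contigs kept, with 99.4% of all counts), TMM, 1 mean per group over 17 libraries, quasi-likelihood F-test, two-sided, Benjamini-Hochberg over all tested contigs, FDR 0.05, 13 residual degrees of freedom. The SE is the log2 fold change over the square root of F. The procedure was tested on simulated counts in the nest contrast only, with set fold changes in randomly picked contigs. The simulation was not built to hold contigs that switch between wasps. No 2 libraries of a group were as close as sampling noise (lowest chi-square per degree of freedom 6.69).

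The 12 contigs, the rules for naming them and the settings were chosen with earlier results of these data known. Contigs named were, by rule, the 6 of highest mean, those without intermediate wasps, those of smallest p in each direction per contrast, the most negative pair, those beside each bound, and the 3 most like the first. All 12 are described, and partners and neighbours outside this rule were named after their values were seen. Alternatives were DESeq2 1.42.0 (size factors, and its Wald test), no filter, robust dispersions, only the libraries compared, collection month, 1 worker group, other bounds of the rule, and leaving out each wasp.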

Additional observations from a re-analysis of the deposited data

Results flagged for a closer look

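19 of 52 sets of values, each 1 contig or the number of contigs present in 1 group, held 1 wasp far from the rest of its group by Dixon's test, where chance gives about 1 in 20, or 2.6 of 52. The contigs were chosen for such gaps, so this count is no test. F35 was far from the other foundresses trained to faces in PfusTSAr1.0-050488 (61.8 CPM, the others 0 to 14.9), PfusTSAr1.0-050485 (25.1, the others 0.0583 to 5.03) and PfusTSAr1.0-056058 (0, the others 2.95 to 3.82). F55 was far from them in PfusTSAr1.0-064538 (5.53, the others 0 to 0.172) and PfusTSAr1.0-098481 (5.83, the others 0 to 0.631).

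Among foundresses trained to patterns, F3 stood apart in PfusTSAr1.0-050488 (39.6 CPM, the others 5.97 to 11.6), PfusTSAr1.0-050485 (17.5, the others 2.03 to 4.23), PfusTSAr1.0-110957 (14.8, the others 3.67 to 5.17) and PfusTSAr1.0-098483 (5.59, the others 1.61 to 2.15), and F52 in PfusTSAr1.0-079581 (5.11, the others 0 to 0.130). F3 is the library of lowest total.

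Among conspecific-nest workers, FW28 stood apart in PfusTSAr1.0-077752 (4.11 CPM, the others all 0), PfusTSAr1.0-079581 (3.61, the others 0.120 to 0.277) and PfusTSAr1.0-069786 (4.97, the others 0.0502 to 0.240), FW25 in PfusTSAr1.0-056058 (9.08, the others 0 to 1.33) and FW47 in PfusTSAr1.0-064538 (5.99, the others 0 to 0.0502). Among allospecific-nest workers, FW24 stood apart in PfusTSAr1.0-050488 (25.1 CPM, the others 0 to 0.121) and PfusTSAr1.0-050485 (11.6, the others 0 to 0.0607), and FW11 in PfusTSAr1.0-069786 (1.88, the others 0 to 0.203) and PfusTSAr1.0-064538 (0.0536, which is 1 read, the others all 0).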

How the results depend on the processing

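How many contigs met the rule depended on its bounds: 24 with present at 2 CPM or more, 4 at 5 CPM or more, 27 with absent under 0.5 CPM, and 27 and 7 with 3 and 5 wasps required on each side, against 12. It was 9 to 13 with each wasp left out, and 12 with CPM on the TMM scale, sharing 11. For the nest 1 of the 12 passed with DESeq2's Wald test (0.0591% of all contigs), 1 with no filter (0.0315%) and 1 with only the libraries compared (0.0483%), each time PfusTSAr1.0-110957, and 0 with each wasp left out. With only the libraries compared, this contig could pass the filter only through the conspecific-nest workers, where it is high. For caste 3 passed with DESeq2's Wald test (5.30% of all contigs) and 3 with no filter (1.30%), namely PfusTSAr1.0-110957, PfusTSAr1.0-052856 and PfusTSAr1.0-059185. Then 2 passed with only the libraries compared (10.3%, PfusTSAr1.0-052856 and PfusTSAr1.0-059185) and 1 with allospecific workers alone (1.33%, PfusTSAr1.0-110957). With conspecific workers alone 0 passed, where 181 of 61002 contigs did, and 0 to 2 passed with each wasp left out. For training 0 passed under the 24 settings run, but DESeq2's Wald test kept no adjusted p for any of the 12. The filter kept 10 of the 12 with only the libraries compared, and 11 in May wasps alone and without F55. Collection month as a covariate gave 0 for all 3 contrasts.

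The direction turned for PfusTSAr1.0-064538 in training with month as a covariate (log2 fold change 7.28), for PfusTSAr1.0-050488 in the nest contrast without FW24 (5.58, range -2.68 to 5.58 over wasps left out), and for PfusTSAr1.0-077752 in caste with conspecific workers alone (0.55) and in the range of -0.78 to 3.51 over wasps left out. With month in the fit, training rests on the May wasps. F3 and F17 had 0 reads of PfusTSAr1.0-064538, so the size of 7.28 depends on the prior count. The cause of the other turns was not tested. No paired analysis was possible because the groups share no replicate numbers and each wasp is a separate animal. Groups of 4 or 5 wasps, SEs of 0.75 to 2.84 on the log2 scale and 3 CPM at only 23.1 reads in F3 limit what these contrasts can show.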
